A study of Mus musculus with 20 samples.

Results

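Distal accessible regions that stayed listed until 72 h after estradiol withdrawal and were listed no longer at 96 and 120 h are described here. Overlapping ATAC-seq peaks of all 10 time points were merged into 88351 regions, of which 75571 were distal, with the widest peak more than 1000 bp from the nearest annotated transcription start site (TSS). A region belonged to the set when it held a peak in each of the 8 lists between 0 and 72 h and none at 96 and 120 h. The set comprised 7334 regions, which is 8.30% of all regions and 9.70% of the distal ones. The regions were chosen by their presence in the lists, so their absence at 96 and 120 h is a definition and not a finding. The limit of 1000 bp fell between near neighbours. Just inside it lay regions at -1004 bp from Sorcs2, 1005 bp from Mir7648 and 1007 bp from Cd160, and just outside lay regions at -998 bp from Mir6541, -997 bp from Galr3 and -994 bp from Gcsam.

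The cells were cultured mouse ER-Hoxa9-Lys-GFP cells of strain C57BL/6, grown throughout in RPMI with serum and SCF-conditioned medium. Estradiol (E2) was present in 2 of the 20 samples (0 h) and had been washed out with PBS for 4, 8, 12, 24, 36, 48, 72, 96 or 120 h in the others, 2 per time. By their name all groups share the ER-Hoxa9 fusion and the lysozyme-GFP reporter, and no group without the fusion was compared. Per the labels' protocols, nuclei were divided between transposition reactions, and the 2 samples of a time may be technical replicates. One peak list was deposited for each time and belongs to both replicates, so no spread between replicates can be given, no p-value is printed, and intervals are 95% intervals that cover counting error only.

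ATAC-seq uses the transposase Tn5 to cut and tag DNA that is free of nucleosomes, and a peak marks a stretch cut more often than its surroundings. Open sites far from a TSS are often enhancers or insulators, where lineage transcription factors or CTCF bind. A Hoxa9 protein fused to the estrogen receptor hormone domain is active while E2 is present and holds myeloid progenitors immature, and removing E2 lets such cells mature toward neutrophils. In bulk cells, fewer cells with an open site and less opening per cell cannot be told apart.

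Sequence was at hand only for windows of up to 250 bases before RefSeq gene starts (GRCm38.p6, the same sequence as mm10). Of the closing regions, 54 held at least 200 bases of such a window. Shown as examples of the DNA of late-closing sites are the 3 whose nearest gene as deposited is in a list used below: an intergenic site -17174 bp from E2f3, a cell cycle transcription factor, a CpG island -1664 bp from Egr2, a zinc finger factor of the macrophage branch, and an intergenic site 141033 bp from the start of Meis1, the homeobox partner of Hoxa9. The windows lie directly before the RefSeq starts of other genes, Gm40860 at the E2f3 site, Gm32255 at the Egr2 site and 8430419K02Rik at the Meis1 site. E2f3, Egr2 and Meis1 are thus only the nearest genes of the deposited annotation, and the sites are distal by that annotation alone. Each is printed 5′ to 3′ on the strand of the RefSeq start that defines the window. Capitals mark a match to TGTGGT, the RUNX core, at bases 21 to 26 of the E2f3 window, and to a loose form of the CTCF core (CC, any 3 bases, AG, any 2 bases, GGC) at bases 202 to 213 of the Meis1 window, both read on the opposite strand. The Egr2 window held neither.
E2f3 site (before Gm40860), mm10 chr13:30003125-30003374, plus strand: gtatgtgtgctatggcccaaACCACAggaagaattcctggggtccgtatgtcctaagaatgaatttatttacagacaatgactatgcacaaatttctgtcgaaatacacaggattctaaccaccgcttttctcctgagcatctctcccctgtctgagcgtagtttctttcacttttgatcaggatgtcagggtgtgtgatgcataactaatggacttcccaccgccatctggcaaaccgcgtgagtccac
Egr2 site (before Gm32255), mm10 chr10:67536181-67536421, minus strand: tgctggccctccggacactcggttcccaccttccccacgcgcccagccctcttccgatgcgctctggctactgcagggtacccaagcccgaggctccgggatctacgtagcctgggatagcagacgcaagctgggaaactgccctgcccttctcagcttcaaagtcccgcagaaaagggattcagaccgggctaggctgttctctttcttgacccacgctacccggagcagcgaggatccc
Meis1 site (before 8430419K02Rik), mm10 chr11:18877603-18877852, minus strand: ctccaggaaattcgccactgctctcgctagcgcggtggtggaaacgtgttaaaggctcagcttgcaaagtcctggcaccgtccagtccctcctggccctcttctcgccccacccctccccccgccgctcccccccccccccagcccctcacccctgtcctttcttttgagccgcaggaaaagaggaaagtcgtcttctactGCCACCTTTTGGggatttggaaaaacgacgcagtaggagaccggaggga

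The E2f3 site was 442, 456, 468, 516, 442, 392, 592 and 432 bp wide at 0, 4, 8, 12, 24, 36, 48 and 72 h. The Egr2 site measured 423, 416, 381, 411, 406, 391, 392 and 385 bp at the same times. The Meis1 site measured 842, 857, 851, 860, 863, 853, 841 and 841 bp. The last of these varied little over 72 h and was then not listed. Over both strands, the CTCF form occurred in 12 of the 54 closing windows (22.2%, 13.2 to 34.9%), in 20 of 169 windows in distal regions listed at all 10 times (11.8%, 7.79 to 17.6%) and in 7.16% of all 32817 RefSeq windows. In regions last listed at 96 h it occurred in 9 of 37 (24.3%), so it was not particular to the closing windows. TGTGGT occurred in 12 of the 54 (22.2%), against 25 of 169 (14.8%) and 14.0% of all windows. In regions last listed at 96 h it occurred in 7 of 37 (18.9%), and in those last listed at 48 h in 5 of 26 (19.2%). The PU.1-type GAGGAAGT occurred in 3 of the 54 (5.56%), against 13 of 169 (7.69%) and 2.44% of all windows. The AP-1-type TGANTCA was rarer, in 1 of the 54 (1.85%), against 15 of 169 (8.88%) and 6.75% of all windows. It was about as rare in regions last listed at 96 h, in 1 of 37 (2.70%). In those last listed at 48 h it occurred in 6 of 26 (23.1%). Of the other motifs searched, GGAA occurred in 96.3% of closing and 95.9% of constant windows, CANNTG in 64.8% and 63.3%, TTGCNNAA in 11.1% and 16.6% and AGATAA in 9.26% and 6.51%, while TTGCGCAA, TGATTTAT and the Meis-Pbx composite motif occurred in 0 of the 54. For every motif the intervals of the closing and constant windows overlapped. The CTCF form was added to the search after the data were seen. These windows all lie directly before RefSeq gene starts and stand for few of the 7334 regions.

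Among distal regions listed in all 8 lists up to 72 h, those that closed were the largest fraction. They made up 41.1% of 17865 such regions, the background for every share below. A further 3112 (17.4%) were listed to 96 h but not 120 h, 517 (2.89%) were absent at 96 h and listed again at 120 h, and 6902 (38.6%) were listed at all 10 times. Near promoters, within 1000 bp of a TSS, 8.2% closed in the same way, or 523 of 6378, and 5276 (82.7%) were listed at all times. The 72 h list held 46837 peaks, the 96 h list 29806 and the 120 h list 23620, and the read depth behind them is unknown. Lost accessibility and a late list that is shorter for another reason therefore cannot be told apart. When every list was reduced to as many of its widest peaks as the shortest list holds, 940 regions met the rule, 22.3% of the 4208 at risk. The closing regions held 7394 of 55261 peaks at 0 h (13.4%), 7414 of 62559 at 24 h (11.9%) and 7378 of 46837 at 72 h (15.8%). Of the 7334 regions, 7181 (97.9%) held exactly 1 peak in each list.

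Closing regions were narrower at 72 h than at 0 h. Their median width was 421, 422, 429, 421, 410, 371, 377.5 and 358 bp at 0, 4, 8, 12, 24, 36, 48 and 72 h. Distal regions listed at all 10 times had medians of 546, 556, 575, 570, 541, 509, 524 and 586 bp at those times, and of 540 and 520 bp at 96 and 120 h. The closing regions were thus narrower at the outset, and the distance grew at 72 h. Over single regions, the width at 72 h divided by that at 0 h had a median of 0.909 in closing regions (quartiles 0.751 to 1.03) and of 1.02 in constant ones. Of the closing regions, 69.1% (68.0 to 70.2%) were narrower at 72 h than at 0 h, against 42.1% (40.9 to 43.3%) of the constant ones. Regions last listed at another time showed narrow last peaks too. The 3827 distal regions listed up to 48 h and absent from then on had medians of 420 and 343 bp in the lists of 0 and 48 h. The 3112 listed to 96 h had medians of 465, 455 and 312 bp in the lists of 0, 72 and 96 h. Width and presence come from the same peak calls, so these values are descriptions.

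**Figure D1:**
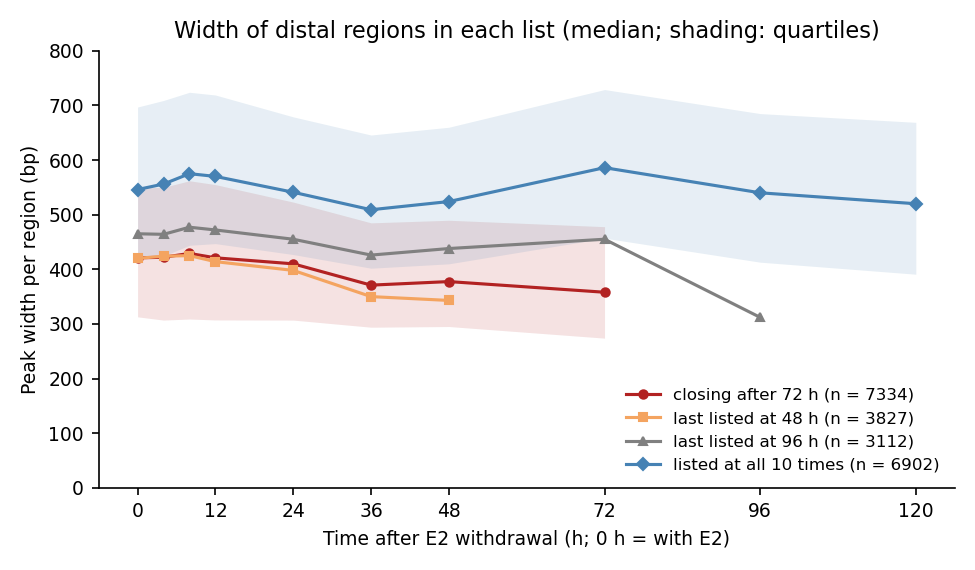
Median peak width per region in bp (vertical axis) against hours after E2 withdrawal (horizontal axis, 0 h with E2) for distal regions closing after 72 h, last listed at 48 h, last listed at 96 h and listed at all 10 times, with shaded quartiles for the first and the last set. Closing regions go down to a median of 358 bp at 72 h, when constant regions stand at 586 bp.

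The share that closed differed widely with the width at 72 h. Of distal regions at most 250 bp wide at 72 h, 1011 of 1214 closed (83.3%). The share was 63.4% at 250 to 350 bp, 48.0% at 350 to 450 bp, 31.2% at 450 to 600 bp and 18.6% at 600 to 800 bp. Above 800 bp it was 14.0%, or 233 of 1664. Wide sites could close as well. The closing region widest at 72 h was 19318 bp from Cxxc5, a CXXC zinc finger gene on chromosome 18, and measured between 1418 and 1761 bp in the 8 lists. An intronic site at 7572 bp from Ptp4a3, a tyrosine phosphatase gene, measured 1522, 1596, 1602, 1567, 1556, 1538, 1574 and 1593 bp up to 72 h. A site at -48898 bp from Zc3h12a, which encodes an RNase that degrades inflammatory mRNAs, measured between 1345 and 1479 bp. A site at -7778 bp from Mir34a, a microRNA gene that acts downstream of p53, measured between 1163 and 1455 bp. The site 1380 bp from Ffar1, a fatty acid receptor gene, measured 1342, 1495, 1540 and 1589 bp up to 12 h, then 260, 418 and 266 bp at 24, 36 and 48 h, and 1520 bp at 72 h. These 5 sites held wide peaks at 72 h, and none was listed at 96 h.

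**Figure D2:**
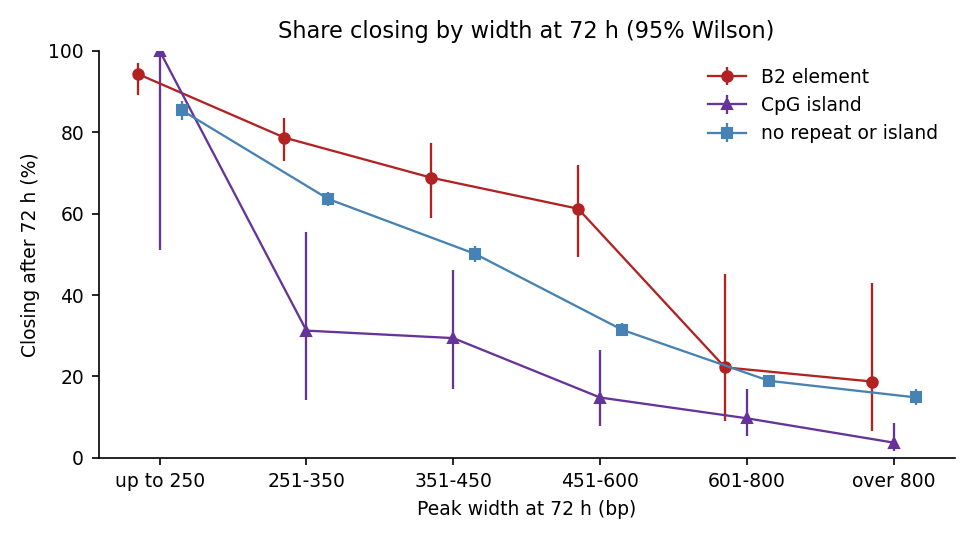
Share of distal regions listed from 0 to 72 h that closed (vertical axis, percent, with 95% Wilson intervals) by peak width at 72 h in bp (horizontal axis) for regions annotated to a B2 element, to a CpG island and to no repeat or island. In every class the share is highest in the narrowest band, and the B2 points lie above those of regions without a repeat in each band.

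By location the closing regions differed only by small amounts from the distal sites that stayed. Intergenic DNA held 48.3% of them (47.2 to 49.5%), against 51.4% (50.2 to 52.6%) of the constant regions, and introns held 45.0% (43.9 to 46.2%), against 43.5% (42.4 to 44.7%). Exons, transcription termination sites and 3' UTRs held 2.29%, 2.55% and 1.35% of the closing regions, against 1.67%, 1.68% and 1.27% of the constant ones. The intervals did not overlap for intergenic DNA and for termination sites (2.21 to 2.94% against 1.40 to 2.01%). The median distance to the TSS was 20576 bp in closing regions (quartiles 8608 and 46384 bp) and 20266.5 bp in constant ones, and in the regions last listed at 48 h it was 25534 bp. The share closing lay between 37.3% for sites 1000 to 2000 bp from a TSS and 42.1% for sites 20000 to 50000 bp away. Among chromosomes it was lowest on Y, with 2 of 19, and otherwise lay between 34.4% on chromosome 19 and 43.7% on chromosome 3.

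Repetitive DNA set some sites apart. B2 elements are short interspersed repeats of rodents, derived from a tRNA and transcribed by RNA polymerase III, and many copies in the mouse are known to carry CTCF sites. Of 574 distal regions annotated to a B2 element and listed from 0 to 72 h, 433 closed (75.4%, 71.8 to 78.8%), and 46 were listed at all 10 times. The common subfamilies had like shares, with 243 of 325 for B3, 100 of 136 for B3A and 82 of 102 for B2_Mm2. B2 sites were 5.90% of the closing regions and 0.666% of the constant ones. They were also 6.72% of regions last listed at 48 h, 2.80% of those last listed at 96 h and 5.30% of all distal regions. The share in the closing set was thus near that of all distal regions, and the sets listed longer had lower shares. B2 peaks were narrow, with a median of 294 bp at 72 h, against 466 bp for regions without a repeat. In the band of 250 to 350 bp, 188 of 239 B2 regions closed (78.7%, 73.0 to 83.4%), against 63.6% (61.8 to 65.2%) of regions without a repeat, and at 450 to 600 bp the shares were 61.2% (49.2 to 72.0%) and 31.4% (29.9 to 33.0%). At 600 to 800 bp 4 of 18 B2 regions closed, and above 800 bp 3 of 16. With each list reduced to its widest peaks, in equal number, 4 of 18 B2 regions closed, or 22.2% against 22.3% of all.

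DNA transposons of the hAT-Charlie family were the other class with at least 80 regions whose interval lay wholly above 41.1%, with 57 of 89 closing (64.0%, 53.7 to 73.2%). Among them were 19 of 24 MER20 and 11 of 13 URR1B copies. The median width at 72 h was 407 bp for the class, 286.5 bp for MER20 and 477 bp for URR1B. Of all distal regions 250 to 350 bp wide, 63.4% closed, which the MER20 interval (59.5 to 90.8%) includes. The long terminal repeats of endogenous retroviruses lay lower. ERVL-MaLR elements had 35.6% (282 of 792), ERVK elements 35.1% and ERV1 elements 24.5% (35 of 143). The ERV1 regions include RLTR6C_Mm and RLTR6_Mm copies, of which 0 of 24 and 1 of 24 closed. These copies are alike, so read placement is uncertain, and they lower the ERV1 share. Within ERVK, 20 of 33 IAPEY4_LTR copies closed. CpG islands away from a TSS mostly stayed, with 42 of 345 closing (12.2%, 9.13 to 16.0%), and their peaks were wide, with a median of 725 bp at 72 h. In the band of 450 to 600 bp, 8 of 54 CpG islands closed (14.8%, 7.70 to 26.6%), so at like width the share was still below the 31.4% of regions without a repeat. Simple repeats also mostly stayed, with 38 of 178 closing (21.3%). Copies of tRNA genes, which RNA polymerase III transcribes as well, closed in 9 of 21 cases (42.9%, 24.5 to 63.5%).

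**Figure D3:**
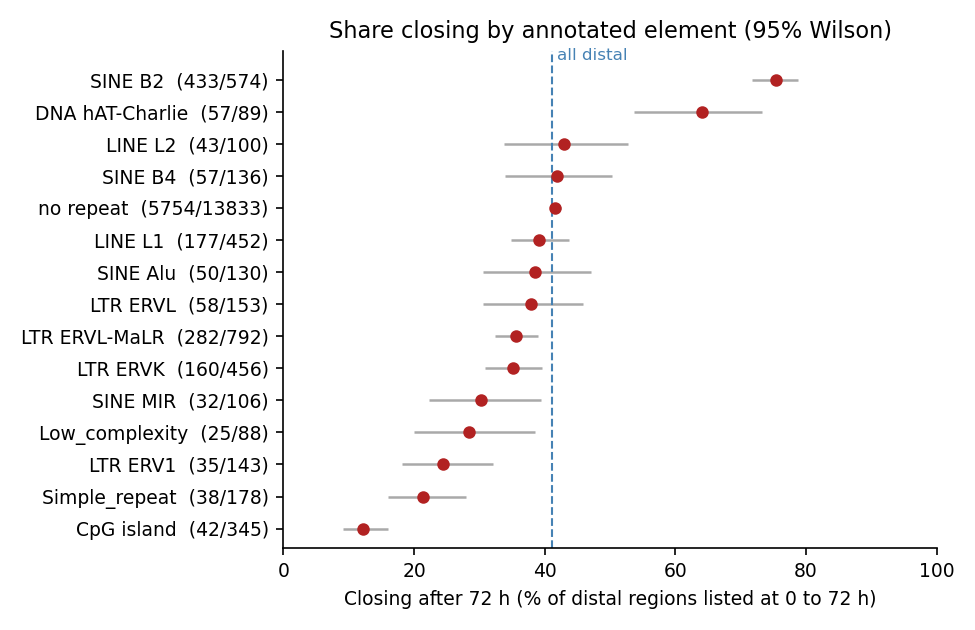
Share of distal regions listed from 0 to 72 h that closed (horizontal axis, percent, points with 95% Wilson intervals) for each annotated element class with at least 80 such regions, with counts beside each name and a dashed line at the share over all distal regions. B2 and hAT-Charlie elements lie to the right of the line, and CpG islands, simple repeats and ERV1 elements to its left.

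A single tandem array closed as a whole. The 5S ribosomal RNA, a component of the large ribosomal subunit made by RNA polymerase III, is encoded on chromosome 8 between 123538784 and 123622046 (mm10) by 50 annotated genes and pseudogenes, spaced 1698 bp apart in the median. The array held 47 of the merged regions, and each overlapped an annotated 5S gene. Of these regions 41, 41, 40, 41, 42, 44, 45 and 32 were listed at 0, 4, 8, 12, 24, 36, 48 and 72 h, and 0 at 96 and 120 h. Single regions came and went between the earlier lists, the number listed was lower at 72 h, and no region was listed at 96 h. All 20 distal regions of the array listed from 0 to 72 h closed, and 5 others closed that lay within 1000 bp of a TSS as deposited. The 20 were assigned to the nearest listed TSS, 13 to Gm26391, itself a 5S gene, and 7 to Rhou, a gene beyond the array, and by that assignment they counted as distal. Their widths at 72 h lay between 220 and 363 bp, with a median of 294.5 bp, against 347.5 bp at 0 h. In the band of 250 to 350 bp, which holds that median, 63.4% of all distal regions closed. Copies of the array are nearly identical, so reads may not be placed on 1 copy, and the regions are not independent sites. Ribosomal sequence of another kind did not close: 0 of 35 copies of the large subunit gene fragment LSU-rRNA_Hsa did.

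**Figure D4:**
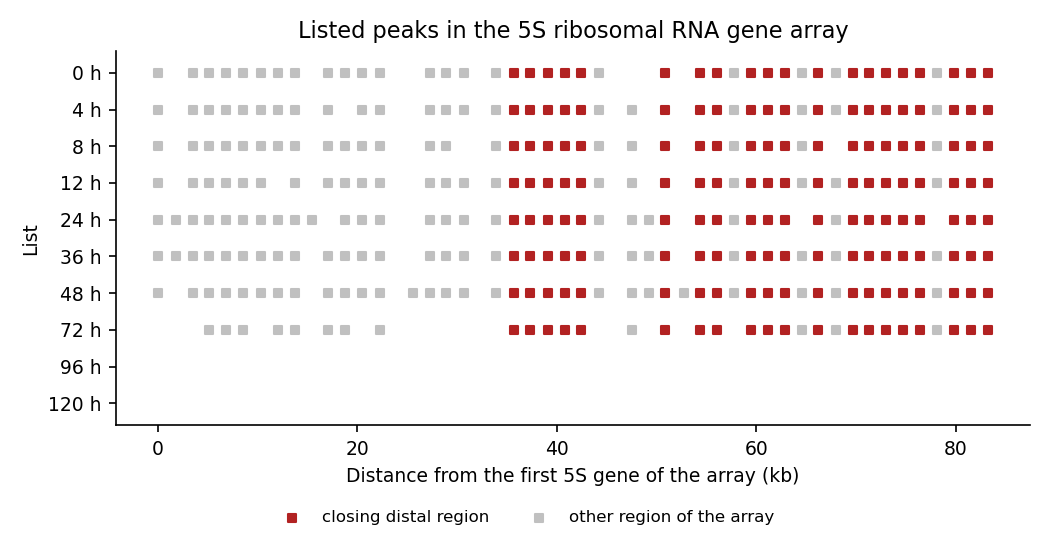
Peaks listed in the 5S array at each time (rows, 0 h at the top) against the distance from the first 5S gene in kb (horizontal axis), with closing distal regions in red and other regions of the array in grey. Peaks are listed along the array up to 72 h, fewer in its first part at 72 h, and none at 96 or 120 h.

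By nearest gene the closing regions were spread widely. They were assigned to 5384 of the 9228 genes with a distal region listed from 0 to 72 h, and 4007 of these genes had a single one. Gm30214, a long non-coding RNA gene, had the most, 14 of 19. These lie between 52848024 and 53505889 on chromosome 14, a stretch with 79 annotated genes, of which 70 are variable segments of the T cell receptor alpha and delta locus. The widest of them, -33532 bp from Gm30214, measured 997, 970, 975, 1003, 1019, 970, 978 and 1031 bp up to 72 h. Mir7094-2 had 6 of 9, in a stretch of chromosome 12 where 45 of 49 annotated genes are variable segments of the immunoglobulin heavy chain. The nearest gene in the list is thus a poor name for both stretches.

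The other genes with most closing regions were of varied function. Fut8, which encodes the enzyme that adds core fucose to N-glycans, closed at 6 of 6 regions. The Fut8 region widest at 72 h measured 368, 484, 682, 943, 483, 501, 706 and 700 bp, and 4 of the 6 Fut8 regions were annotated to long terminal repeats. Apbb2, an adaptor that binds the amyloid precursor protein, closed at 6 of 7, and its widest region, -26012 bp away in an intron, measured between 954 and 1225 bp. Arhgap24, a GTPase activator for Rac, closed at 7 of 12, and Elmo1, which activates Rac together with Dock proteins, at 6 of 10. Klhl25, an adaptor of a ubiquitin ligase, closed at 7 of 13, and the long non-coding Gm38404 at 6 of 8. Rhou owed 7 of its 8 closing regions to the 5S array. Of the 551 genes with at least 5 distal regions listed from 0 to 72 h, 3 lost all of them (Fut8, Gm26391 and Kcnab2, a potassium channel subunit gene), 54 had none that closed, and 10 kept every one to 120 h. Among those 10 were Ccr1 and Tnfrsf1b, receptors for chemokines and for tumour necrosis factor, and Notch2.

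Gene lists for the cell type and its alternatives were read against the background of 41.1%. The primary granule list, whose products are made at the promyelocyte stage, had 10 of 27 regions closing (37.0%, 21.5 to 55.8%). Prtn3, which encodes proteinase 3, lost 4 of 4. Its site at -1630 bp (chromosome 10, 79877740 to 79878329) measured 585, 580, 564, 555, 582, 547, 575 and 585 bp up to 72 h. The site at 1159 bp measured 449, 436, 420, 479, 421, 408, 359 and 420 bp. The sites at -2295 and 2528 bp measured 329 to 358 bp and 207 to 252 bp. All 4 thus kept their width until the last list that held them. Next to them, near Elane, the neutrophil elastase gene, a site at -2423 bp was listed from 4 to 72 h and one at -1732 bp only up to 48 h.

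Other granule genes had at most 2 closing sites each. Of the 11 primary granule genes with a distal region listed from 0 to 72 h, 6 had a closing one. Srgn and Plac8 had 0 of 4 closing each, Ctsc 0 of 2 and Gusb 0 of 1. Of these, 2 at Srgn and 3 at Plac8 were listed to 96 h but not at 120 h. Ctsg, the cathepsin G gene, had 2 of 3, and the one at -3222 bp (chromosome 14, 56105431 to 56106161) measured 725, 731, 680, 674, 668, 653, 660 and 664 bp. Mpo, the myeloperoxidase gene, had 1 of 1, at -14932 bp in an intron of another gene, which measured 605, 550, 760, 643, 674, 608, 903 and 597 bp. Both kept most of their width up to 72 h. Lyz2, which carries the reporter, had 1 distal region listed from 0 to 72 h, at -3156 bp, and it was listed at all 10 times. The secondary and tertiary granule list had 3 of 11 (27.3%, 9.75 to 56.6%), 1 each at Mmp8, the neutrophil collagenase gene, Hp, the haptoglobin gene, and S100a9, a calprotectin subunit gene. The Hp site lay at -14357 bp, in a 3' UTR of another gene. The neutrophil surface and chemotaxis list had 13 of 46 (28.3%, 17.3 to 42.5%), with 3 of 5 at Selplg, the selectin ligand PSGL-1, 2 of 9 at Cxcr4 and 1 of 1 at Cxcr2, chemokine receptors of marrow retention and of release. The closing Selplg site at -14428 bp lay in an intron of another gene. The 2 closing Cxcr4 sites lay -233077 and -232232 bp from its TSS, and the 5 listed at all 10 times lay nearer.

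Macrophage and monocyte genes had the lowest share of the 15 lists. Only 3 of 39 regions closed (7.69%, 2.65 to 20.3%) and 29 were listed at all 10 times. The 3 had as nearest gene Ly6c2, a monocyte surface marker, Mpeg1, which encodes perforin-2, and Maf, a bZIP factor that closed at 1 of 12. The Maf site lay 472729 bp from its TSS, in an intron of another gene. The Mpeg1 site lay at 6877 bp, in a 3' UTR of another gene. Of the 39 regions, 12 had Maf as nearest gene, and regions of 1 gene may not be independent. The share of this list was not compared at like width. With lists of equal number of widest peaks 0 of 11 closed, with the widest 50% of each list 6 of 17 closed (35.3%, against 46.9% of all), and with absence at 120 h alone 9 of 39 (23.1%, against 58.5% of all). The list's share lay below that of all distal regions under each of these settings, but with equal numbers and with the widest 50% its interval (0 to 25.9% and 17.3 to 58.7%) included the share of all, 22.3% and 46.9%. Cytokine receptor genes had 10 of 37 (27.0%, 15.4 to 43.0%), with 3 of 4 at Il1r2, the decoy receptor of interleukin 1, 2 of 4 at Il1r1, the signalling receptor, and 1 at Ifngr2.

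Myeloid transcription factor genes lay below the background, whereas the intervals of progenitor genes and of Hoxa9 and Meis1 targets included it. The myeloid transcription factor list had 51 of 157 (32.5%, 25.7 to 40.2%), with 5 of 8 at Runx3, 4 of 10 at Fli1, an ETS factor, and 3 of 5 at Egr2. The Runx3 site at -53521 bp measured 631, 633, 619, 645, 628, 644, 646 and 653 bp up to 72 h. The Fli1 site at -14905 bp measured 742, 644, 639, 770, 550, 450, 448 and 638 bp. The Runx3 site thus held an even width, whereas the Fli1 site was narrow at 36 and 48 h and wide again at 72 h. Progenitor and stem cell genes had 26 of 59 (44.1%, 32.2 to 56.7%), with 4 of 6 at Erg, an ETS factor of stem cells, 2 of 2 at Cd48 and 2 at Mn1, a coactivator gene of leukaemia. Of the 23 progenitor genes with such regions, 18 had a closing one. Cd93 had 0 of 5 closing, Cd34, Adgrg1 and Tal1 0 of 3 each and Hlf 0 of 1. Of these, 3 at Cd93, 2 at Cd34 and 1 each at Adgrg1, Tal1 and Hlf were listed at all 10 times. Of the 4 Erg sites, 2 were annotated to B2 elements of the B3 and B3A subfamilies. The Hoxa9 and Meis1 target list had 23 of 70 (32.9%, 23.0 to 44.5%), with 5 of 9 at Foxp1, a forkhead factor, and 3 of 5 at Camk2d, a calcium-dependent kinase gene, besides the 4 Erg sites, which stand in both lists. The Foxp1 site at 75043 bp measured 816, 955, 979, 817, 858, 913, 879 and 826 bp. Meis1 itself lost 1 of 4, the site whose sequence is shown above.

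Signalling brakes had the highest share of the lists with more than 5 regions, 21 of 46 (45.7%, 32.2 to 59.8%). This is near the background of 41.1%, which the interval includes. Of the 14 genes of the list with such regions, 10 had a closing one. Dusp1, Dusp4 and Spry4 had 0 of 2 closing each and Socs7 0 of 1. Of these, 2 at Dusp4 and 1 at Spry4 were listed to 96 h but not at 120 h. Spred1 lost 3 of 3 and Spred2 4 of 7, both inhibitors of Ras signalling, and Dusp6, a phosphatase of ERK, 4 of 9. The Spred1 site at -15427 bp measured 696, 686, 681, 682, 707, 668, 663 and 827 bp, its widest value being the last. The proliferation list had 14 of 47 (29.8%, 18.7 to 44.0%), with 2 each at Ccnd1, Mki67 and Max, the genes of cyclin D1, the Ki-67 antigen and the partner of Myc. Both Ccnd1 sites were CpG islands. The one at -3575 bp measured 581, 561, 576, 590, 593, 569, 563 and 574 bp and the one at -1635 bp 515, 522, 514, 522, 521, 496, 512 and 492 bp, so neither had narrowed much by 72 h. The Id and E protein list had 1 of 8, at Id2, an inhibitor of E proteins.

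Lists of other lineages gave small counts. Mast cell, basophil and eosinophil genes had 12 of 27 (44.4%, 27.6 to 62.7%), with 3 of 4 at Ear1, an eosinophil ribonuclease gene, 2 of 2 at Cpa3, the mast cell carboxypeptidase gene, and 2 of 4 at Hdc, which encodes the enzyme that makes histamine. The Cpa3 site at -1887 bp measured 531, 547, 556, 569, 532, 542, 528 and 528 bp. Erythroid and megakaryocyte genes had 9 of 22 (40.9%), with 4 of 8 at Zfpm1, the cofactor of GATA1. Lymphoid genes had 5 of 18 (27.8%), of which 3 of 3 at Tcf7, a T lineage factor, and 1 each at Ebf1 and Ikzf1. The non-blood list had 3 of 5, at Neurod1 and Cdh1. Of the 15 lists, only those of macrophage and monocyte genes and of myeloid transcription factors had an interval that lay wholly below 41.1%, and none lay wholly above it. The 318 genes were all matched in the reference, 301 had a peak, and 15 stand in more than 1 list.

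**Figure D5:**
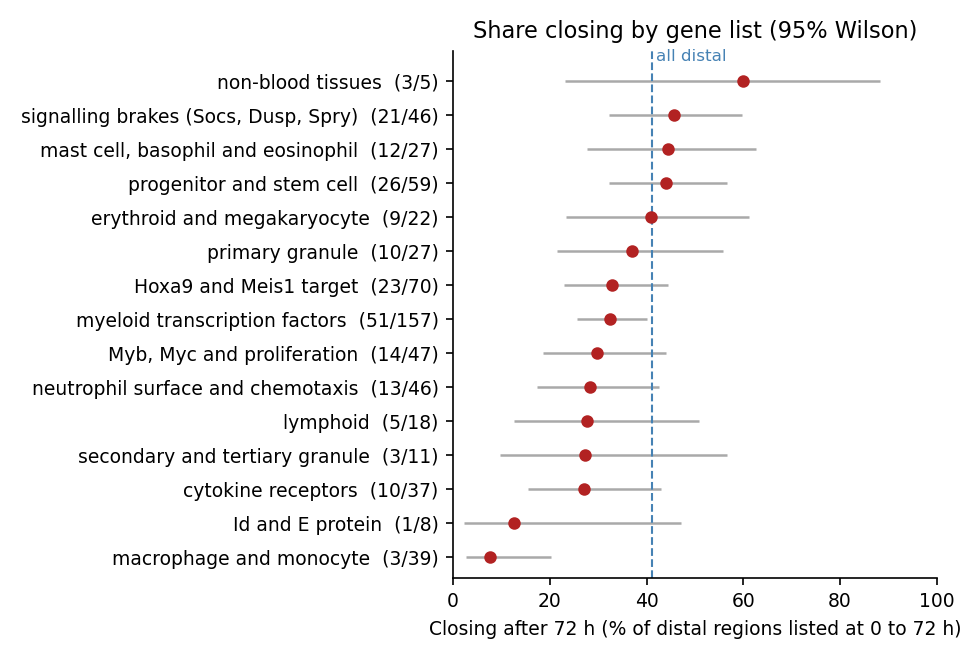
Share of distal regions listed from 0 to 72 h that closed (horizontal axis, percent, points with 95% Wilson intervals) for each of the 15 gene lists, with counts beside each name and a dashed line at the share over all distal regions. The macrophage and monocyte list stands at 7.69%, and most other intervals include the line.

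Promoters near closing sites were mostly kept. Of genes whose every distal region listed from 0 to 72 h closed and that had a promoter peak at 72 h, 1034 of 1245 (83.1%) had one at 120 h. For genes with no closing region this was 1594 of 1913 (83.3%). The difference was -0.272 percentage points (-2.98 to 2.36). Among genes with 3 or more such regions, 39 of 55 with every region closing had a promoter peak at 120 h (70.9%) and 215 of 258 with none closing (83.3%), a difference of -12.4 points (-26.1 to -0.944). At 96 h that difference was -5.39 points (-18.0 to 3.85), on the same small number of genes. The promoter was thus listed about as often in both groups, except for genes with several regions at 120 h, where the interval only just left 0. Genes with no closing region did not all keep their distal regions, since regions listed to 96 h but not 120 h do not count as closing.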

How the data were processed

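ATAC-seq peak lists of 20 samples, 1 list per time point for both replicates, were used. Per the file headers, the authors annotated the deposited lists with HOMER against mm10. Per the submitters' processing notes, the tools were BWA, MACS2 2.0 and STAR 2.5 and the build mm9, with no role given, and replicate pooling and any Tn5 shift are not given in the sources used here. Each deposited list gives peak positions and TSS distances in bp, and the deposited score of all 504887 peaks is 0, so it was not used. Positions are mm10, counted from 1.

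Peaks sharing 1 bp or more were chained into regions, and gene, annotation and distance were taken from the widest peak. The width of a region in a list is the sum of its peaks there. Repeat classes come from the deposited detailed annotation of that peak. Shares carry 95% Wilson intervals, medians order-statistic intervals and differences of shares score intervals. Depth per sample is unknown. The members and gene lists were chosen with earlier results of these data known. Genes were named by rule: the 10 with most closing regions, up to 3 per list, Lyz2, and the 5 regions widest at 72 h. Genes at the distance limit, with sequence, with every region closing or kept, and Elane were named after their values were seen. The merging and sorting steps were tested on simulated data. The simulated regions lay too far apart to be chained and had a single distance each. Chaining of neighbours and the choice of the widest peak were thus not tested. A genome sequence was not used here. Computations ran in Python 3.11.15 with pandas 2.3.3, numpy 2.4.6, scipy 1.17.1, statsmodels 0.14.6 and matplotlib 3.10.9.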

Additional observations from a re-analysis of the deposited data

How the results depend on the processing

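No paired analysis was possible because 1 list per time serves both replicates, and for the same reason no replicate could be left out. In 14 alternatives the number of closing regions lay between 940 and 10446. It moved by over 1.5 times with equal numbers of widest peaks (940) and the widest 50% of each list (2550). The share closing was then 22.3% and 46.9%. It was 43.9% with absence at 96 h alone, 58.5% with absence at 120 h alone, 39.9% with no late peak within 500 bp and 43.2% with 1 middle list missing. The intron share was 46.4% with equal numbers. The intergenic share was 49.6% with distal sites over 5000 bp. The median distance was 25849.5 bp with sites over 5000 bp, 25974 bp with equal numbers and 24005 bp with the widest 50%. The width ratio was 0.916 with absence at 96 h alone, 0.932 at 120 h alone, 0.942 with equal numbers and 0.979 with the widest 50%. B2 and macrophage shares, added after the data were seen, moved to 90.6% and 23.1% with absence at 120 h alone, 22.2% and 0% with equal numbers, and 54.2% and 35.3% with the widest 50%. Merging, and leaving out the 4, 24 or 48 h list, moved none of the 8 results. The cause was not tested, beyond fewer and wider peaks in cut lists.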

Other observations

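Closing regions had a closing neighbour more often than other sites did. For 45.4% of closing regions (44.3 to 46.5%) the nearest distal region listed from 0 to 72 h closed too, against 35.6% (34.7 to 36.5%) of regions that did not close. Within 2000 bp the shares were 47.9% (43.8 to 51.9%) and 31.2% (28.4 to 34.2%), and beyond 100000 bp 46.2% (43.0 to 49.5%) and 43.3% (40.1 to 46.5%). The nearest such region lay 20580.5 bp away in the median for closing regions and 15636 bp for the others. Neighbouring regions share their chromosome, base composition and libraries, and the part of these in the values was not tested.

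Several multi-copy sequences rarely closed. Among distal regions listed from 0 to 72 h, 0 of 22 annotated to the major satellite GSAT_MM closed and 22 were listed at all 10 times. For RLTR6C_Mm 0 of 24 closed and 23 were listed at all times, and for RLTR6_Mm 1 of 24 closed and 23 were listed at all times. For the telomeric repeat 0 of 19 closed on 1 strand, with 18 listed at all times, and 1 of 23 on the other, with 22. Their copies are alike, so placement of reads among them is uncertain. Mir101c was the nearest gene of 21 such regions, and all 21 were listed to 120 h.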
